A study of Mus musculus with 2 samples.

Results

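The cells described here are osteocalcin-high cells of the mouse molar and the tissue around it, of the kind usually called osteoblasts and cementoblasts. They were chosen by measured values. Among cells with at least 200 detected genes and at most 20% of their unique molecular identifiers (UMIs, the counted RNA molecules) from mitochondrially coded genes, a member had at least 10 UMIs of Bglap plus Bglap2, fewer than 10 UMIs of Dspp and at least 2% of its UMIs from Col1a1. This rule found 560 members among 17780 kept cells, out of 19015 deposited cells. In C57BL/6J mice at PN15.5, the first mandibular molars were taken with the tissues that surround them, dissociated with Dispase and Collagenase I and profiled by droplet single-cell RNA sequencing. Lipo-Clo mice were injected intraperitoneally with clodronate liposomes, which deplete macrophages, at 40 μg/g, first on PN3.5, then on PN6.5 and PN9.5, and last on PN12.5, and Lipo-PBS mice received vehicle liposomes in the same volume on the same days. Each treatment is represented by 1 library, and both carry the batch label 1. The number of mice behind a library is not given in the sources used here, the study included both sexes, and Xist and the Y-linked gene Ddx3y were both present in the members of each library. Nothing below therefore has a replicate check, no test between treatments was possible, and all intervals are 95% intervals that cover counting error only. The libraries held 31053404 UMIs in 9362 cells (Lipo-Clo) and 30537834 UMIs in 9653 cells (Lipo-PBS). Where a pair of values is given without names, the first is Lipo-Clo and the second Lipo-PBS. The libraries shared 30 cell barcodes, none of them among the members.

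Osteoblasts build bone by secreting type I collagen and a set of acidic, calcium-binding proteins, and by releasing the phosphate that mineralizes them. Cementoblasts do the same on the root surface and express largely the same genes, so the cell types are hard to part by RNA. Osteocalcin is a small vitamin K-dependent protein made late in this maturation. In mice it is encoded by a cluster of near-identical genes, Bglap, Bglap2 and Bglap3, and odontoblasts, the dentin-forming cells that express Dspp, transcribe it too.

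The regions upstream of the start sites of Bglap and Ibsp (bone sialoprotein) are shown because both genes were abundant in the members and are textbook genes of mineralizing cells. Each run covers the 250 bases before the start site given by RefSeq on GRCm38.p6, read 5′ to 3′ along the gene's strand. Bglap lies on the minus strand at chr3:88384467-88384716 and Ibsp on the plus strand at chr5:104299037-104299286. Capitals mark the Runx core letters (ACCACA, or TGTGGT on the other strand) and the TATA letters (TATAAA, or TTTATA on the other strand).
Bglap: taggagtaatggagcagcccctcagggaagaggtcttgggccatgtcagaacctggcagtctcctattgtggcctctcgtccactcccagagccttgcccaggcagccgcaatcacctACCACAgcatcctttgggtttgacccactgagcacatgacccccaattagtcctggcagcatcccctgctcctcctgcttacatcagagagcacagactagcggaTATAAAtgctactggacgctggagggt
Ibsp: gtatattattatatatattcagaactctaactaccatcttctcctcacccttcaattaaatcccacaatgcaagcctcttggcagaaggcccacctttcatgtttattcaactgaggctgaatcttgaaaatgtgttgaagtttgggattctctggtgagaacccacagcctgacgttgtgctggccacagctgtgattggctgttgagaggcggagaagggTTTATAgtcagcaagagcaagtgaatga
The Bglap region held 1 Runx core match that began 132 bases before the start and 1 TATA match that began 27 bases before it. The Ibsp region held the TATA letters on the reverse strand, beginning 28 bases before the start, and no Runx core letters. Across all 32851 regions of this length, 14.0% held the Runx core letters and 12.4% the TATA letters on either strand. These matches are descriptions of letters and not measured binding.

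There were 244 members in Lipo-Clo and 316 in Lipo-PBS. Their summed depth was 1355798 and 1590489 UMIs, with a median of 4258 UMIs (range 509 to 27296) and 1850 genes per Lipo-Clo member and 4408.5 UMIs (range 612 to 18944) and 1864 genes per Lipo-PBS member. The median member carried 31 (Lipo-Clo) or 22 (Lipo-PBS) osteocalcin UMIs, or 0.707% and 0.603% of its UMIs. The upper tail was long: the highest counts were 1095 and 1256 UMIs, and 30 and 28 members had 100 or more. Near the lower limit, 37 Lipo-Clo and 57 Lipo-PBS members had 10 to 12 osteocalcin UMIs, while 57 and 77 collagen-rich cells with little Dspp fell just outside with 7 to 9. Osteocalcin counts thus formed a continuum across the limit. The Dspp limit removed 48 Lipo-Clo and 24 Lipo-PBS cells, of which 10 and 2 carried 10 to 14 Dspp UMIs, whereas 21 and 8 members carried 5 to 9. The Col1a1 limit removed 175 and 182 further cells with 10 or more osteocalcin UMIs, of which 40 and 72 had 1.5 to 2% of their UMIs from Col1a1, and 36 and 43 members had 2 to 2.5%.

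**Figure D1:**
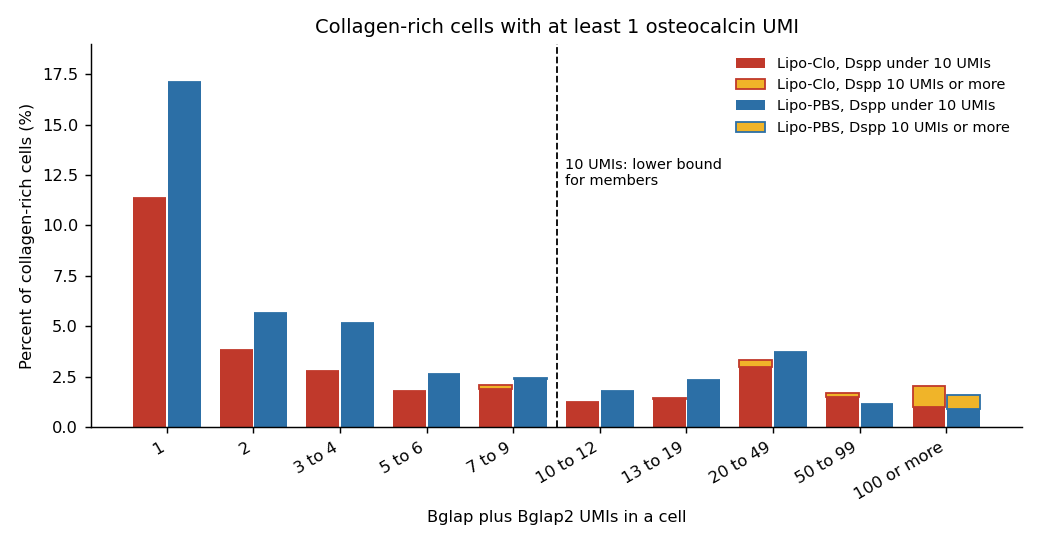
Percent of collagen-rich cells (y axis; cells with Col1a1 at 2% of UMIs or more, 3015 in Lipo-Clo and 3213 in Lipo-PBS) by their Bglap plus Bglap2 UMIs (x axis), with cells at 0 UMIs (68.5% and 56.4%) not drawn. Red and blue bars are cells with fewer than 10 Dspp UMIs and yellow bars cells with 10 or more, and the members are the red and blue cells right of the dashed line; no gap in the distribution marks the limit of 10 UMIs.

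Most members carried RNAs known from bone-forming cells, although the markers did not part osteoblasts from cementoblasts. Of 6 osteoblast genes that the rule did not use (Ibsp, Sp7, Runx2, Alpl, Dmp1 and Spp1), at least 3 had a UMI in 75.8% of Lipo-Clo and 74.1% of Lipo-PBS members. The same was seen in 61.3% and 61.7% of Ibsp cells (Col1a1 at 2% of UMIs or more, 5 or more Ibsp UMIs, little osteocalcin or Dspp) and in 31.5% and 50% of Dspp-high cells (collagen-rich, 10 or more Dspp UMIs). It was seen in 22.5% and 19.98% of other collagen-rich cells (little osteocalcin, Dspp or Ibsp), which were chosen for a low level of one of the 6 genes. In cells that should lack these genes it was seen in 5.01% and 2.90% of Cd79 cells (3 or more UMIs of the B cell genes Cd79a and Cd79b) and in 3.52% and 9.66% of endothelial-marker cells (5 or more UMIs of Cdh5, Pecam1, Kdr and Emcn), both taken below the Col1a1 limit. Those cells were shallower, with medians of 1315 and 1525 UMIs for Cd79 cells and 1498 and 2219.5 UMIs for endothelial cells. None of the 6 genes had a UMI in 13 Lipo-Clo and 5 Lipo-PBS members. Because the members were chosen on levels, these values are descriptions and not tests.

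Ibsp, a sialoprotein that nucleates mineral, was seen in 79.5% of Lipo-Clo and 82.3% of Lipo-PBS members, against 10.5% and 9.96% of Cd79 cells. Its summed level as CPM (UMIs summed over the cells of a class, scaled to a common total of counts) was 10180 and 9446 CPM in the members of Lipo-Clo and Lipo-PBS, against 389 and 355 CPM in Cd79 cells. Other collagen-rich cells were taken with fewer than 5 Ibsp UMIs, so their low level (91.5 and 117 CPM) follows from that definition, and collagen-rich cells with 5 or more Ibsp UMIs and little osteocalcin stood at 10413 and 9383 CPM, close to the members. Runx2, the transcription factor that sets the osteoblast lineage, was seen in 82.0% and 83.5% of members and in 11.8% and 13.3% of Cd79 cells. The Runx2 level was 617 and 683 CPM in members against 559 and 548 CPM in other collagen-rich cells. Its level thus did not set the members apart, as was also the case for Alpl, the phosphatase that frees phosphate, at 292 and 268 CPM in members and 381 and 296 CPM in other collagen-rich cells. Sp7 (osterix), which acts after Runx2, was at 148 and 93.1 CPM in members and 62.7 and 42.7 CPM in other collagen-rich cells. Spp1 (osteopontin), a matrix phosphoprotein, was seen in 45.5% and 45.3% of members and in 7.74% and 4.56% of Cd79 cells. It was uneven in members, where 510 of 4098 Spp1 UMIs in Lipo-Clo and 547 of 4022 in Lipo-PBS came from 1 cell.

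Dmp1, a phosphoprotein of maturing osteoblasts, osteocytes and odontoblasts, was seen in 49.2% and 37.97% of members, against 1.59% and 1.66% of Cd79 cells. Mepe, Fgf23 and Sost, which mark embedded osteocytes in bone, had 0 UMIs in the members of both libraries, which allows a share of members with a UMI of up to 1.23% (Lipo-Clo) and 0.949% (Lipo-PBS), taken as 3 cells of the total. Mepe also had no UMI in any of the comparison cells tabulated, so its absence did not set the members apart. The other 2 were also rare there. Fgf23 was found only in other collagen-rich cells (3 and 1 UMIs). Sost was found only in Dspp-high cells (3 and 2 UMIs) and in Ibsp cells of Lipo-PBS (1 UMI). Phex, another gene known from osteocytes, was seen in 16.8% and 12.7% of members, against 1.14% and 1.66% of Cd79 cells. Of 10 cementum-associated genes, 9 were in use, among them Wif1, a Wnt inhibitor, at 1009 and 970 CPM, Pthlh at 319 and 236 CPM and Barx1 at 181 and 170 CPM. That list also holds Ibsp, Spp1 and Ogn, which bone cells express, so it does not single out cementoblasts. Odontoblast genes reached into the members: 20.1% of Lipo-Clo and 13.6% of Lipo-PBS members carried 1 to 9 Dspp UMIs, against 0.911% and 1.66% of Cd79 cells. Mmp20, a protease of dentin and enamel matrix, was seen in 9.43% and 6.65% of members against 74.1% and 80.8% of Dspp-high cells. In Cd79 cells the Mmp20 shares were 1.37% and 0.83%. The label therefore fits most but not all members, and cells with some odontoblast RNA are included.

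**Figure D2:**
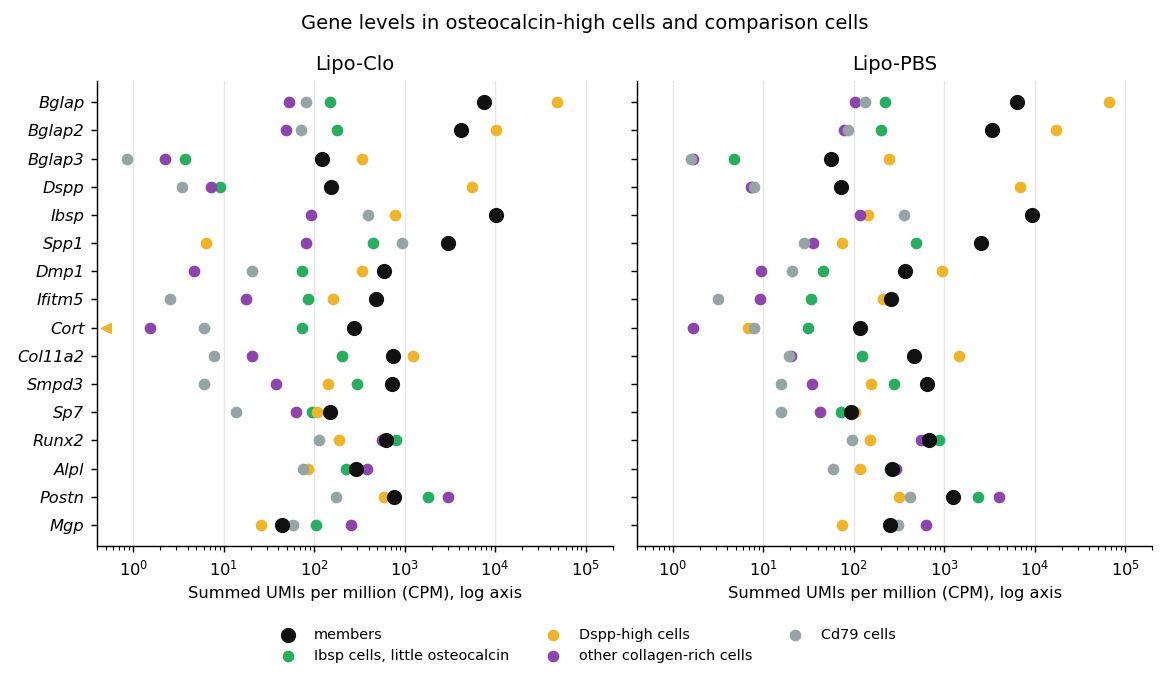
Summed level of 16 genes (rows; x axis, CPM on a log axis) in members (black) and in 4 groups of comparison cells, 1 panel per library; a triangle at the left edge stands for a gene with no UMI. Spp1, Dmp1, Ifitm5 and Smpd3 lay far to the right in members compared with other collagen-rich cells, while Runx2 and Alpl lay close together and Postn lay to the left.

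The genes most raised in members over other collagen-rich cells, ranked by the lower of the 2 libraries' ratios, included many known from mineralizing tissue. Ibsp, with a log2 ratio of 6.80 in Lipo-Clo and 6.34 in Lipo-PBS, ranked first because the comparison cells were chosen for little Ibsp. Cort, which encodes the neuropeptide cortistatin, stood at 7.51 and 6.11, then Dmp1 at 6.97 and 5.27 and Spp1 at 5.21 and 6.15. Bglap3 stood at 5.74 and 5.05, but its reads may be shared with its paralogs. Ifitm5, a small membrane protein of osteoblasts whose mutation causes brittle bone disease in humans, stood at 4.77 and 4.82. Smpd3, a sphingomyelinase needed for normal mineralization, stood at 4.26 and 4.23, and Col11a2, a minor fibrillar collagen chain, at 5.15 and 4.53. The other 7 of the 15 were Pla2g5, Gchfr, Car3, Bmp8a, Tubb3, Crtac1 and Gm40193, with ratios from 3.40 to 5.60. Of a few mesenchymal genes that the study's text names, some were lower in members than in other collagen-rich cells: the ratios were -1.98 and -1.68 for Postn (periostin), -1.09 and -0.83 for Prrx1, -1.21 and -1.65 for Sfrp2, -2.76 and -1.30 for Mfap5 and -2.54 and -1.33 for Mgp, an inhibitor of calcification. Gli1, a hedgehog target that marks the root's mesenchymal progenitors, was near its floor, with 5 UMIs in Lipo-Clo and 9 in Lipo-PBS members.

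Collagen-rich cells with 5 or more Ibsp UMIs but fewer than 10 osteocalcin UMIs (587 and 664) were more numerous than the members. They were at 73.8 and 46.0 CPM of Dmp1 against 586 and 365 CPM in members, at 85.1 and 33.7 CPM of Ifitm5 against 477 and 261 CPM, and at 447 and 485 CPM of Spp1 against 3023 and 2529 CPM. Their Runx2 level was higher than the members', at 797 and 880 CPM. Their Postn level, 1789 and 2382 CPM, lay between that of members (772 and 1249 CPM) and that of other collagen-rich cells (3047 and 4007 CPM) in both libraries.

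The osteocalcin paralogs were not counted in one fixed proportion. The members' UMIs gave 1.83 Bglap per Bglap2 (interval 1.77 to 1.89) in Lipo-Clo, and in Lipo-PBS the value was 1.89 (1.83 to 1.95). Dspp-high cells gave 4.74 (4.56 to 4.93) and 3.80 (3.63 to 3.97), and Ibsp cells with little osteocalcin gave 0.830 (0.719 to 0.958) and 1.10 (0.983 to 1.24). Within the members the ratio differed with Dspp, at 1.51 and 1.48 in members with no Dspp UMI and 3.23 and 3.41 in those with 1 to 9. It was also highest in the tertile with most osteocalcin, at 2.14 and 2.33, against 1.35 and 1.21 in the lowest tertile and 1.20 and 1.29 in the middle one. Among members without any Dspp UMI the highest tertile still gave 1.72 and 1.74, against 1.14 and 1.17 in the lowest. The spread between cells was wide: in members with at least 20 osteocalcin UMIs, Bglap made up a median of 58.3% of them (10th to 90th percentile 34.0 to 82.0%) over 165 Lipo-Clo cells and 62.3% over 184 Lipo-PBS cells (39.2 to 79.96%). The reference transcripts of Bglap and Bglap2 were identical at 434 of 440 aligned bases, so reads can be shared between them. Bglap3 was identical to Bglap2 at 460 of 471 aligned bases, so both the split into paralogs and the sum of Bglap and Bglap2 carry this uncertainty. Osteocalcin UMIs were also found in Cd79 cells, which gave 1.13 (0.834 to 1.54) and 1.53 (1.07 to 2.19) on 179 and 139 UMIs.

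**Figure D3:**
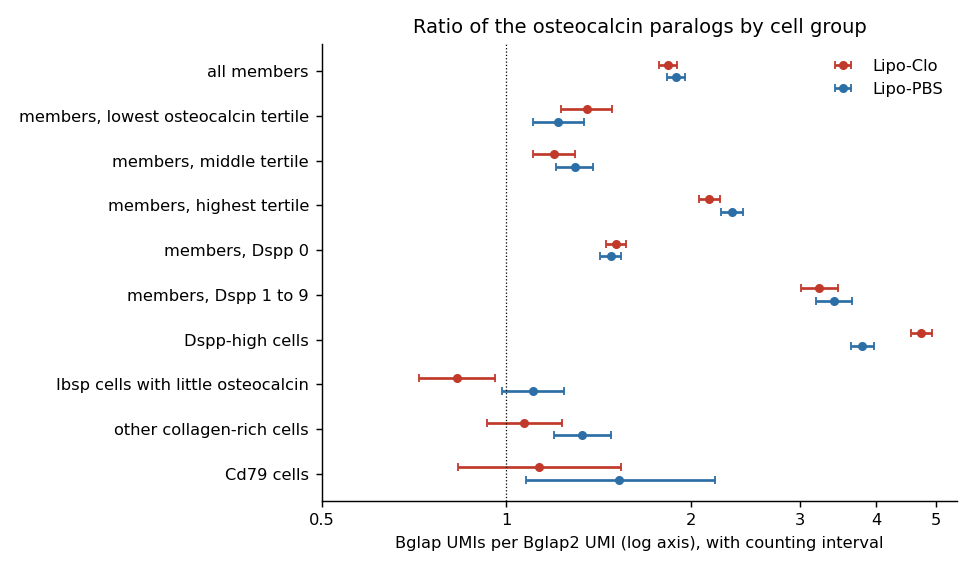
Bglap UMIs per Bglap2 UMI (x axis, log) for members, subsets of members and comparison cells (rows), in Lipo-Clo (red) and Lipo-PBS (blue); bars are 95% counting intervals. Members with 1 to 9 Dspp UMIs lay between members without Dspp (1.51 and 1.48) and Dspp-high cells (4.74 and 3.80) in both libraries.

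Across the range of osteocalcin, genes differed in where they peaked. Members of both libraries together were split into tertiles at 0.448% and 0.975% of UMIs from osteocalcin, which put 76, 74 and 94 Lipo-Clo and 111, 112 and 93 Lipo-PBS members in the lowest, middle and highest. Depth differed between them, with median UMIs of 6580.5, 4069 and 2609.5 (Lipo-Clo) and 5568, 3767 and 3537 (Lipo-PBS), since a shallow cell needs a larger share to reach 10 UMIs. Ibsp peaked in the middle tertile of both libraries, at 13846 CPM in Lipo-Clo against 8290 and 9415 CPM on either side, and at 13496 CPM in Lipo-PBS against 7408 and 7761 CPM. Dmp1 was highest in the highest tertile, at 268, 797 and 882 CPM from lowest to highest in Lipo-Clo and at 174, 397 and 649 CPM in Lipo-PBS. Phex, an endopeptidase of osteocytes and odontoblasts that limits phosphate loss, was concentrated in the highest tertile, with 13.3, 33.6 and 201 CPM (Lipo-Clo) and 10.3, 33.4 and 239 CPM (Lipo-PBS). Odontoblast markers were highest in the same tertile: Dspp stood at 38.3, 90.6 and 404 CPM in Lipo-Clo and at 13.2, 35.4 and 216 CPM in Lipo-PBS, and Mmp20 reached 62.4 and 62.2 CPM there, against at most 14.98 and 9.82 CPM in the lower ones. Phex itself was at 952 and 1194 CPM in Dspp-high cells, and the part of odontoblast RNA in the Dmp1 and Phex gradients was not tested. Postn decreased along the tertiles in both libraries, from 819 to 766 and 703 CPM in Lipo-Clo and from 1665 to 1114 and 716 CPM in Lipo-PBS. The share of members with a Postn UMI went the same way, from 76.3% to 64.9% and 39.4% in Lipo-Clo and from 92.8% in the lowest to 54.8% in the highest in Lipo-PBS, although depth was lower along the same order.

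The members were 2.75% of the 8886 cells kept from Lipo-Clo (interval 2.42 to 3.11%) and 3.55% of the 8894 kept from Lipo-PBS (3.18 to 3.96%). The log2 ratio of these shares was -0.37 (-0.62 to -0.13). Taken over collagen-rich cells, the Lipo-Clo share was 8.09% (7.14 to 9.12%) and the Lipo-PBS share 9.84% (8.83 to 10.9%), with a log2 ratio of -0.28 (-0.53 to -0.04). With a limit of 20 osteocalcin UMIs the members numbered 165 and 184 and the log2 ratio was -0.16. It was -0.23 with osteocalcin at 0.3% of UMIs or more, and -0.23 with Col1a1 at 4% or more. Other limits gave a larger difference, with -0.49 for Dspp under 3 UMIs, -0.48 for no Dspp UMI, -0.42 for 5 osteocalcin UMIs and -0.40 for Col1a1 at 1% or more. With each cell thinned to 2000 UMIs and the limit applied afterwards, 2.79% of 5633 Lipo-Clo and 2.88% of 5934 Lipo-PBS cells qualified (log2 ratio -0.05), leaving out 3253 and 2960 shallower cells. With cells of over 2% haemoglobin UMIs left out, members were 229 of 8035 and 233 of 7054 kept cells, or 2.85% and 3.30%, with a log2 ratio of -0.21 (-0.48 to 0.06). Leaving them out of the members alone gave -0.02, a value that keeps those cells in the total. A share among dissociated cells is not a count of cells in the tissue, and the part of depth and haemoglobin in the difference was not tested.

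Osteocalcin itself, on which the cells were chosen, was at 7604 CPM for Bglap and 4152 CPM for Bglap2 in Lipo-Clo members and at 6310 and 3342 CPM in Lipo-PBS members. Of the 6209 other genes in use (a UMI in at least 10% of the members of either library and 50 or more UMIs in all), 293 (4.72%) were at least 1.5-fold higher in Lipo-Clo and 554 (8.92%) at least 1.5-fold lower. These are counts by size alone. Of 107 genes of the lists and of the named genes that passed 1.5-fold, 46 stayed past it in the same direction under every alternative run, and 61 fell short or turned sign under at least 1. Most were lost after thinning to 2000 UMIs (31) and with at most 2% haemoglobin UMIs (29). The 46 include the 12 mitochondrially coded genes in use, and the 107 include genes named for the size of their ratio. These counts therefore do not give a share for all genes in use. The median log2 ratio over all 6209 genes was 0.01. The split between directions depended on scaling: leaving mitochondrial, haemoglobin and ribosomal protein genes out of the totals gave 208 higher and 646 lower, and edgeR's TMM factors gave 349 and 498. Thinning members to 2000 UMIs, which drops counts and cells, gave 719 and 870. Library-wide differences stood beside these counts, since 0.320% of the Lipo-Clo and 1.71% of the Lipo-PBS members' UMIs came from mitochondrially coded genes, and 0.908% and 3.80% from haemoglobin genes. Over all kept cells the same shares were 0.368% and 1.74% for mitochondrial and 5.42% and 7.59% for haemoglobin genes.

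Most transcription factors listed for the osteoblast programme differed by less than 1.5-fold between treatments. Of 18 in use, 2 were at least 1.5-fold higher in Lipo-Clo and none lower, with a median log2 ratio of 0.00, beside 4.72% higher, 8.92% lower and a median of 0.01 for all genes in use. Prrx1, a homeobox factor of mesenchyme outside that list, was lower, at 88.5 CPM (73.4 to 106) against 166 CPM (147 to 187), a ratio of -0.91 that ran from -1.03 to -0.81 over the alternatives. It was also lower in other cells of that library, at 189 and 295 CPM in other collagen-rich cells and at 23.2 and 84.0 CPM in Cd79 cells, which should lack it. Runx2 was at 617 CPM (576 to 661) and 683 CPM (643 to 725), with a log2 ratio of -0.15 (-0.28 to -0.01). Mef2c, which acts in bone-embedded cells among others, was at 1013 and 857 CPM (0.24, 0.13 to 0.35). Sp7 was higher, at 148 CPM (128 to 170) against 93.1 CPM (78.7 to 109), a log2 ratio of 0.67 (0.36 to 0.99), but only 0.24 in thinned cells. Sp7 was also higher in Lipo-Clo in other collagen-rich cells (62.7 and 42.7 CPM) and in Ibsp cells (94.7 and 71.7 CPM). In Dspp-high cells it was near-equal, at 109 and 102 CPM. Dlx3, a homeobox factor of mineralizing tissues, was the other past 1.5-fold, at 28.03 and 16.3 CPM (0.78, and 0.15 in thinned cells). Runx2 and Mef2c stayed under 1.5-fold.

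The major matrix RNAs also differed by less than 1.5-fold, and the larger differences lay in minor ones. Col1a1, a rule gene, had a log2 ratio of 0.35 (0.09 to 0.51 over the alternatives). Ibsp had a log2 ratio of 0.11 (0.07 to 0.14), Sparc (osteonectin, a collagen-binding protein) 0.14 (0.11 to 0.17) and Col1a2 0.05 (0.02 to 0.07), although the Ibsp ratio was -0.29 in members with at least 4% Col1a1. Of 21 non-collagenous matrix genes, 2 were higher (Dmp1 and Bglap3) and 6 lower (Mgp, Ogn, Fmod, Tnn, Postn and Thbs2), with a median of -0.24, beside 4.72% higher and 8.92% lower among all genes in use. In thinned cells the ratios were -0.45 for Postn, -0.49 for Tnn and -0.47 for Fmod, all short of 1.5-fold, and Thbs2 was at -0.58 without doublets. Dmp1 was at 586 CPM (546 to 628) and 365 CPM (336 to 396), a ratio of 0.68 (0.52 to 0.84) that was 0.18 in members with at least 4% Col1a1. Bglap3 was at 122 and 56.0 CPM (1.12, 0.74 to 1.51), with 165 and 89 UMIs, and its reads may be shared with the rule genes Bglap and Bglap2. Spp1 had a ratio of 0.26 (0.19 to 0.32), which was 0.68 in thinned cells and -0.26 with at least 4% Col1a1. Of 19 collagens besides Col1a1, 1 was higher (Col11a2, 0.65, 0.51 to 0.79, but 0.37 in members without Dspp UMIs) and 4 were lower, with a median of -0.17. Those 4 were Col14a1, Col4a1, Col4a2 and Col15a1, which are known from fibroblasts, pericytes and basement membranes. Of 27 genes of collagen folding and cross-linking, 2 were higher, Ifitm5 (0.87, 0.69 to 1.05) and Kdelr2 (0.62, 0.51 to 0.73), and 1 was lower, Loxl1 (-0.93), with a median of 0.05. After thinning, none of these 3 passed 1.5-fold, with ratios of 0.37 for Ifitm5, 0.37 for Kdelr2 and -0.40 for Loxl1. Ifitm5 was also higher in Lipo-Clo in Ibsp cells (85.1 and 33.7 CPM) and in other collagen-rich cells (17.5 and 9.21 CPM). In Dspp-high cells it was not, at 160 and 211 CPM.

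Of 22 phosphate and mineralization genes, 4 were higher and none lower, with a median of 0.15, beside 4.72% and 8.92% of all genes in use. The 4 were Dmp1, Car2 (carbonic anhydrase, 129 and 59.1 CPM, ratio 1.13), Panx3 (a channel protein, 32.5 and 15.1 CPM) and Fam20c (the kinase of secreted phosphoproteins, 47.9 and 30.2 CPM). Car2 stayed past 1.5-fold under every alternative (0.59 to 1.99), whereas in members without Dspp UMIs Panx3 was at 0.32 and Fam20c at 0.45. Alpl had a ratio of 0.12 (-0.08 to 0.33), Smpd3 0.18 (0.06 to 0.31) and Phex -0.11 (-0.51 to 0.29), and the Alpl and Phex intervals include 0. The Phex ratio went past 1.5-fold both ways under alternatives, at 0.92 as a mean over cells and -0.66 with Dspp under 3 UMIs. Among 11 osteocyte genes 2 were higher and 2 lower (Ackr3 and Ptprz1, which stood at -0.55 with at most 2% haemoglobin UMIs and at -0.20 as a mean over cells), and among 9 cementum-associated genes only Ogn (-1.21) passed 1.5-fold.

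Signalling genes differed in both directions, beside 4.72% higher and 8.92% lower among all genes in use. In the Wnt list, 2 of 22 were higher, the ligand Wnt10a at 112 CPM against 46.5 CPM and the sclerostin co-receptor Lrp4 at 173 against 111 CPM, and 3 were lower, the secreted antagonists Sfrp4 (-0.92), Sfrp1 (-0.89) and Sfrp2 (-0.61). Sfrp1 stayed past 1.5-fold under every alternative (-1.16 to -0.70). Sfrp2 was at -0.19 in thinned cells, Sfrp4 at -0.35 with a Col1a1 limit of 1%, and in thinned cells Lrp4 was at 0.47 and Wnt10a at 0.42. The median was 0.13. The target gene Axin2 was at 42.04 and 28.9 CPM (0.54), under the limit. In the BMP and TGF-beta list, 4 of 36 were higher and 7 lower, with a median of -0.07. Bambi, a decoy receptor of this family, was at 1117 and 582 CPM (0.94, 0.82 to 1.06) but had a ratio of 0.19 in thinned cells and 0.34 as a mean over equally weighted cells, and the inhibitor Smad6 was at 48.7 and 25.8 CPM. Bmp7 (0.68) and Bmp8a (0.64) were the other 2, and both fell under the limit in several alternatives, down to 0.27 and 0.31. Among the 7 lower genes were Tgfbi, Ltbp4, Eng, Tgfbr3, Ccn2 and Fst, the activin antagonist follistatin, which had the lowest ratio of the list (-2.24, 6.64 and 31.4 CPM) and stayed past 1.5-fold under every alternative. Ccn2 (-0.60) reached 0.0221 as a mean over equally weighted cells, and thinned cells gave -0.18 for Tgfbr3, -0.47 for Eng and 0.57 for Smad6. With at least 4% Col1a1, Tgfbi was at -0.51 and Ltbp4 at -0.42. The receptors Tgfbr1 (-0.01) and Tgfbr2 (-0.17) and the ligand Tgfb1 (0.16) did not pass 1.5-fold. Of 18 genes of osteoclast coupling and hormone response none was higher and 4 were lower: Igfbp3 (-1.69), Gas6 (-1.20), Igfbp4 (-0.76) and Cxcl12 (-0.70). Of these, Igfbp3 alone passed 1.5-fold under every alternative, since in thinned cells Gas6 was at -0.45, Igfbp4 at -0.12 and Cxcl12 at 0.29. Tnfsf11, the osteoclast factor RANKL, was too rare to count, at 2.21 and 5.66 CPM, while its decoy Tnfrsf11b was at 64.2 and 46.5 CPM.

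**Figure D4:**
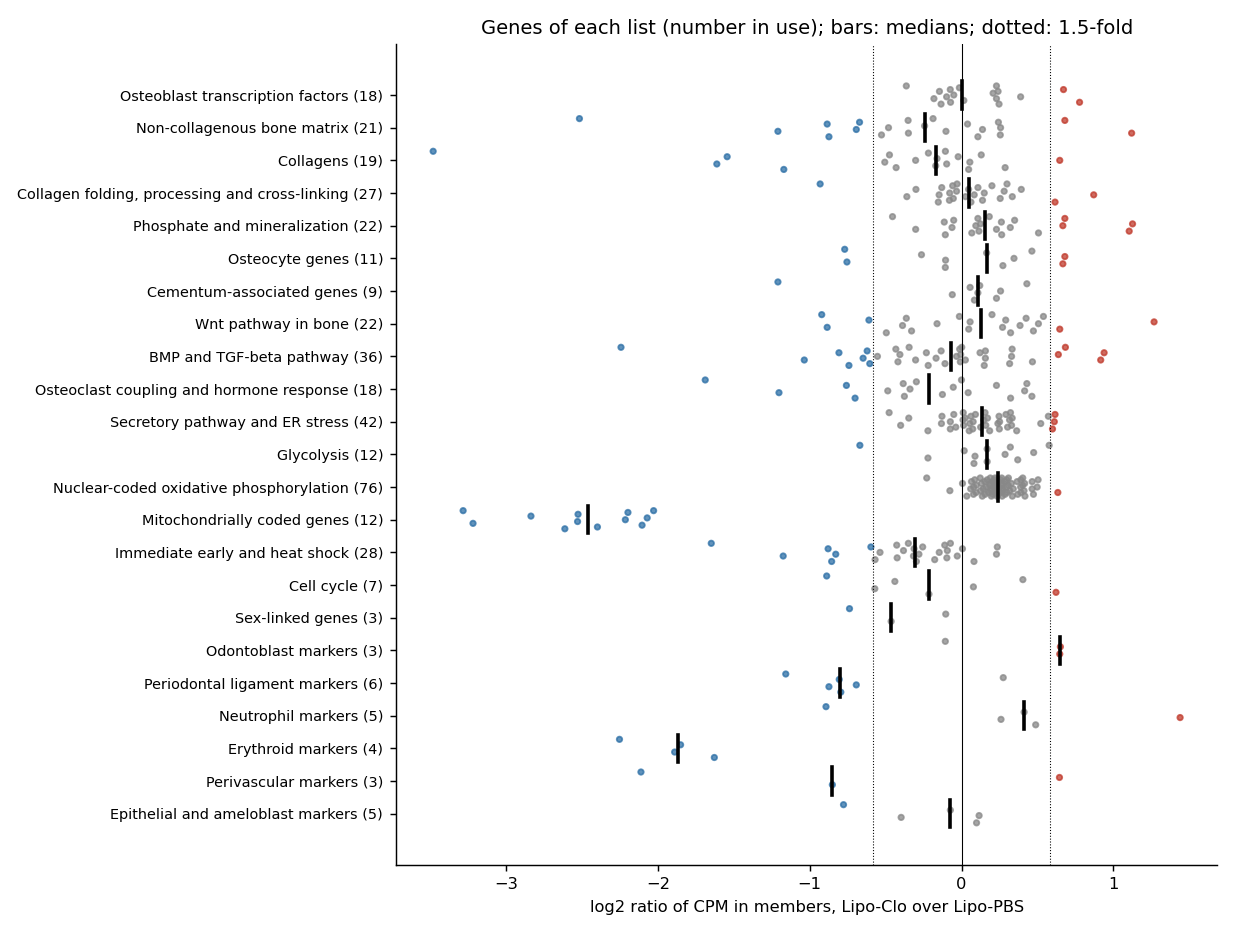
log2 ratio of CPM in members, Lipo-Clo over Lipo-PBS (x axis), for each gene in use of the lists with 3 or more such genes (rows, number in parentheses); red and blue points are at least 1.5-fold higher or lower, black bars are list medians and dotted lines mark 1.5-fold. The list of osteoblast transcription factors centred near 0, and those of collagens (-0.17) and non-collagenous bone matrix (-0.24) centred below it. Mitochondrially coded, erythroid and periodontal ligament genes lay further to the left.

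The 10 highest ratios of one sign in every osteocalcin tertile were ranked with the rule genes, among them Dspp, left out. They were Wnt10a (1.27), Cort (1.254), Plac8 (1.24), Gid4 (1.18), Gsg1l (1.16), Car2 (1.13), Bglap3 (1.12), Fbln7 (1.09), Gchfr (1.06) and Gm19951 (1.02). Bglap3 is a near-identical paralog of the rule genes Bglap and Bglap2 and may share reads with them. Cort had 376 UMIs in 83 Lipo-Clo members and 185 UMIs in 67 Lipo-PBS members, or 277 CPM (250 to 307) against 116 CPM (100 to 134). Its ratio was 1.23 in Ibsp cells with little osteocalcin, and in members it was 1.12 without haemoglobin-rich cells, 1.40 without Dspp UMIs, 1.32 after thinning and 0.76 with a Col1a1 limit of 1%. Gchfr, a regulator of tetrahydrobiopterin synthesis, also had the same ratio in Ibsp cells (1.06) as in members. The ratios in thinned members were 0.42 for Wnt10a and 0.10 for Fbln7. For Plac8 the ratio in Cd79 cells was 1.24, equal to that in members, and Plac8 is also known from blood cells.

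The 10 lowest ratios, taken without mitochondrially coded and haemoglobin genes, were larger in size. Col14a1, a fibril-associated collagen of fibroblasts, had 10 UMIs in 5 Lipo-Clo members and 131 UMIs in 60 Lipo-PBS members, or 7.38 CPM (3.54 to 13.6) against 82.4 CPM (68.9 to 97.7), a log2 ratio of -3.48 (-4.57 to -2.56). Mgp had 60 UMIs in 21 members and 403 UMIs in 117, or 44.3 CPM (33.8 to 57.0) against 253 CPM (229 to 279), a ratio of -2.52 (-2.93 to -2.12). The others were Cd74 (-2.44) and H2-Eb1 (-2.24), which serve MHC class II presentation, Ramp2 (-2.35), a receptor partner known from endothelium, Mfap5 (-2.32), Igfbp6 (-2.27), Itih5 (-2.21) and Ly6a (-2.17), which are known from fibroblasts, and Tagln (-2.24), a contractile gene. The same genes were lower in the Lipo-Clo library outside the members as well. In Cd79 cells, which should not express Mgp or Col14a1, their ratios were -2.41 (68 and 196 UMIs) and -1.66 (35 and 60 UMIs). In other collagen-rich cells they were -1.30 and -1.03, and the members' ratio minus that ratio was -1.22 (-1.62 to -0.82) for Mgp and -2.45 (-3.38 to -1.51) for Col14a1. For Mgp, Cd79 cells of Lipo-PBS stood at 311 CPM and Lipo-PBS members at 253 CPM, so the members' level was not above that of cells that should lack it. The share of Lipo-PBS members with an Mgp UMI was 37.0% (median 4408.5 UMIs) against 12.9% of Cd79 cells (median 1525 UMIs). Without haemoglobin-rich members the ratios were -1.92 for Mgp (and -1.23 with a limit of 5 osteocalcin UMIs), -3.22 for Col14a1, -1.84 for Mfap5 and -2.01 for Igfbp6. Ly6a was at -0.53, short of 1.5-fold, with at least 4% Col1a1.

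**Figure D5:**
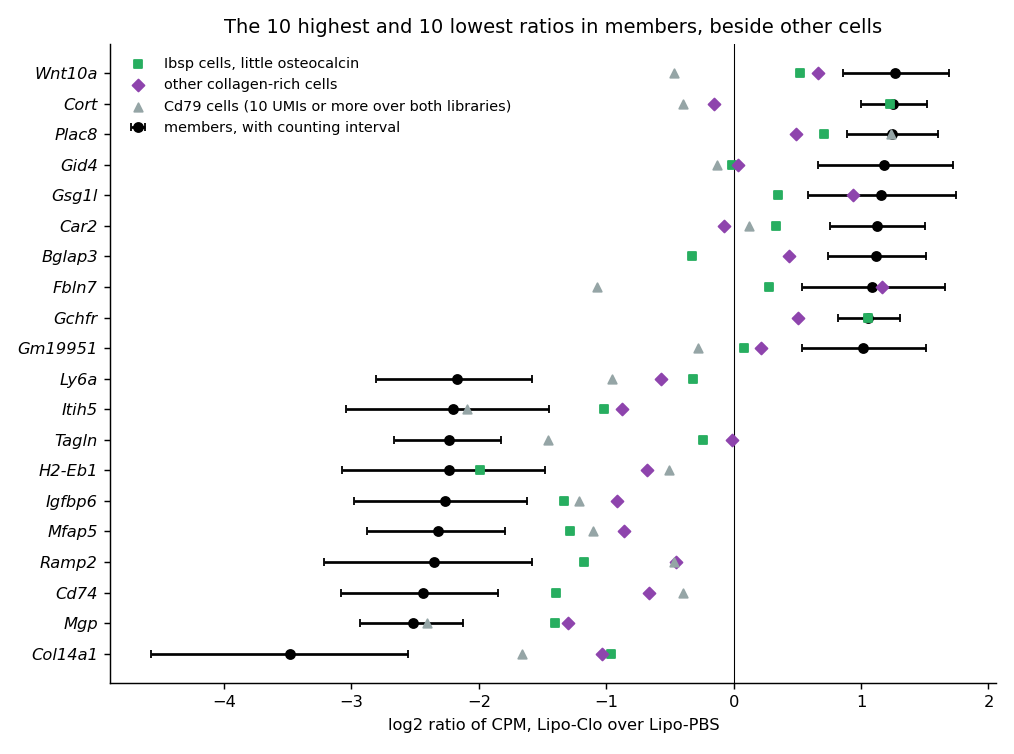
log2 ratio of CPM, Lipo-Clo over Lipo-PBS (x axis), for the 10 highest and 10 lowest genes (rows, without rule, mitochondrially coded and haemoglobin genes). Members are black with 95% counting intervals, Ibsp cells with little osteocalcin green, other collagen-rich cells purple and Cd79 cells grey (drawn with at least 10 UMIs). The lower genes lay left of 0 in all groups drawn, and for Mgp the Cd79 cells (-2.41) lay beside the members (-2.52).

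Markers of other cell types were present in the members, and several of these lists were higher in Lipo-PBS. The perivascular, endothelial, macrophage and glial lists were higher in Cd79 cells than in members, and there too higher in Lipo-PBS. The part of these markers in the differences above was not tested. Periodontal ligament markers, 6 of 10 in use, summed to 1404 and 2192 CPM. The same list stood at 330 and 781 CPM in Cd79 cells and at 4865 and 6732 CPM in other collagen-rich cells. In members 5 of the 6 were at least 1.5-fold lower in Lipo-Clo, beside 8.92% of all genes in use. They were led by Postn at 772 against 1249 CPM (ratio -0.69, -0.80 to -0.58, and -0.46 without doublets). Postn was at 176 and 417 CPM in Cd79 cells. After thinning, Aspn was at -0.48 and Tnn at -0.49. The tendon gene Tnmd was at 218 and 180 CPM, and Kera and Ccn3 had no UMI in Lipo-Clo members. Perivascular markers (6 genes) summed to 153 and 355 CPM, with none at 0, and to 292 and 710 CPM in Cd79 cells. In members they were led by Rgs5 in Lipo-Clo (50.9 and 91.8 CPM) and by Acta2 in Lipo-PBS (41.3 and 179 CPM). Endothelial markers (6 genes) summed to 17.0 and 135 CPM, led by Egfl7 in Lipo-PBS (3.69 and 39.0 CPM), with none in use and none at 0. In Cd79 cells they summed to 126 and 181 CPM. Macrophage markers (9 genes) summed to 95.9 and 261 CPM, led by Apoe at 50.2 and 156 CPM, and the defining genes C1qa, C1qb and C1qc were at 2.21, 1.48 and 1.48 CPM with Lipo-Clo, against 8.80, 17.6 and 6.92 CPM. Mrc1 and Adgre1 had no UMI in Lipo-Clo members. The macrophage list stood at 398 and 726 CPM in Cd79 cells. Glial markers (6 genes) summed to 16.2 and 101 CPM in members and to 18.1 and 637 CPM in Cd79 cells. Mbp was the most abundant in Lipo-Clo members (7.38 and 18.2 CPM), and Cdh19 had no UMI in them.

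Among blood cell lists, erythroid markers were the most abundant. They (7 genes, 4 in use) summed to 9137 and 38032 CPM, led by Hbb-bs at 5175 and 24676 CPM, and near-identical globin genes may share reads. In Cd79 cells the same list stood at 53002 and 83972 CPM, so haemoglobin RNA was found outside red cells in both libraries. Neutrophil markers (9 genes, 5 in use) summed to 2539 and 2050 CPM, led by S100a9 at 1331 and 1000 CPM. They were spread unevenly, since 595 of 1804 S100a9 UMIs in Lipo-Clo and 330 of 1590 in Lipo-PBS came from 1 cell, and the S100a9 ratio ran from -0.34 to 4.37 over the alternatives. B cell markers summed to 46.5 and 41.5 CPM, T and NK cell markers to 5.90 and 14.5 CPM, osteoclast markers to 243 and 275 CPM, chondrocyte markers to 104 and 89.9 CPM and marrow stromal markers to 89.98 and 131 CPM. The most abundant of these lists were Igkc (16.2 and 13.8 CPM), Nkg7 (2.95 and 3.77 CPM), Ctsk, Col9a2 (36.9 and 35.2 CPM) and Kitl (42.04 and 42.8 CPM). Cd3e, Cd8a, Oscar and Col10a1 had no UMI in the members of either library, and Ms4a1, Trbc2, Atp6v0d2, Matn3, Il7, Adipoq and the enamel gene Enam had none in Lipo-Clo members. Osteoclast fusion genes Dcstamp and Ocstamp were at 0 in the members of both libraries, while Ctsk, which mesenchymal cells also express, made up 228 and 260 CPM of that list. Epithelial and ameloblast markers summed to 1027 and 1040 CPM, led by Odam at 573 and 535 CPM, with 163 of its 777 and 105 of its 851 UMIs in 1 cell. Odontoblast markers (7 genes, 3 in use beside Dspp) summed to 1115 and 717 CPM, led by Col11a2, and Nes, an intermediate filament gene, was at 117 and 74.2 CPM; its ratio of 0.65 was -0.17 in thinned members. Among the cells with the highest doublet scores were 15 of the Lipo-Clo and 23 of the Lipo-PBS members.

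Differences in genes of energy metabolism were also seen in the comparison cells. The counts past 1.5-fold in this paragraph stand beside 4.72% higher and 8.92% lower among all genes in use. All 12 mitochondrially coded genes in use were lower in Lipo-Clo, with a median log2 ratio of -2.46, and the list stood at 3198 against 17080 CPM in members, 3120 against 17275 CPM in other collagen-rich cells and 4116 against 18340 CPM in Cd79 cells. Of 76 nuclear-coded genes of oxidative phosphorylation in use, 74 were above 0 with a median of 0.24 (0.19 to 0.28 over the alternatives), but only Cyc1 passed 1.5-fold (0.63, with 0.54 at 20 osteocalcin UMIs). Their sum was 35463 and 29590 CPM in members and 32123 and 25895 CPM in other collagen-rich cells. Of 42 genes of the secretory pathway, 3 were higher (Kdelr2, Creld2 and Ddit3) and none lower (median 0.14). Of these, Creld2 had 56 and 43 UMIs and Ddit3 31 and 24, and both fell under the limit in alternatives, Creld2 at 0.26 with at most 2% haemoglobin UMIs and Ddit3 at 0.40 with a limit of 20 osteocalcin UMIs. The most abundant, Sec61g, a subunit of the translocation channel, was under the limit at 1587 and 1105 CPM (0.52, 0.43 to 0.61). Of 12 glycolysis genes, only Hk2 (-0.67, but -0.27 with at least 4% Col1a1) passed 1.5-fold. Of 28 immediate early and heat shock genes none was higher and 6 were lower (median -0.30), against 4.72% and 8.92% of all genes, among them Atf3 (-1.17) and Hspb1 (-1.65). That list stood at 7781 and 9212 CPM in members at 5977 and 7471 CPM in Cd79 cells and at 11583 and 11868 CPM in other collagen-rich cells. The secretory list stood at 6950 and 6903 CPM in Cd79 cells, near-equal, and at 13776 and 11657 CPM in members. In other collagen-rich cells it was also higher in Lipo-Clo, at 13848 and 12046 CPM. The part of these differences in the other ratios was not tested. Division genes were rare: 7 of 26 were in use, and Mki67 had a UMI in 2.87% of Lipo-Clo (1.16 to 5.82%) and 6.01% of Lipo-PBS members (3.66 to 9.23%), against 6.20% and 4.76% of other collagen-rich cells.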

How the data were processed

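The authors deposited gene-by-cell matrices of UMI counts for both libraries, 34285 genes each, and these counts were used as deposited. The matrix headers name Cell Ranger 8.0.0, whereas the submitters' processing notes name Cell Ranger 3.1.0, Seurat 3.1.1 and the builds GRCm39 and mm39. Reference transcripts and upstream regions came from GRCm38.p6 (GENCODE M21 and RefSeq), another build, and carried no count. Members and gene lists were chosen with earlier results of these data known. Counts were summed over the cells of a class and divided by their total (CPM), with exact Poisson, Clopper-Pearson and conditional binomial 95% intervals (python 3.11.15, numpy 2.4.6, scipy 1.17.1). Named genes were the rule genes, a few mesenchymal genes named in the study's text, and the 3 most abundant and 2 most different each way per list. Also named were the 10 highest and 10 lowest ratios of one sign in all tertiles with at least 100 UMIs. Rule, mitochondrial and haemoglobin genes were left out of that ranking. The 15 genes most raised over other collagen-rich cells were named too. Other list members past 1.5-fold, and a few under it, were named after their values were seen. Doublets were kept in the main values. Scrublet (scanpy 1.11.5) called 0 and 1 cells by its automatic threshold, which was taken as not working, so the 632 and 633 top-scoring cells were used for the alternative. edgeR 4.0.16 and DESeq2 1.42.0 served only for scaling factors. Calculations were tested on simulated data. A few list members are not reported here.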

Additional observations from a re-analysis of the deposited data

Results flagged for a closer look

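Flagged here were 4 genes whose ratio of Lipo-Clo over Lipo-PBS in members was opposite in sign to that in other collagen-rich cells. Both ratios were at least 1.5-fold in size. The share of all genes in use that do this is not given, so the number 4 alone does not set these genes apart. The opposite signs were not tested, since no replicates exist. The log2 ratio of Bmp8a, a BMP ligand, was 0.64 in members (0.31 to 0.79 over the alternatives) and -0.96 in other collagen-rich cells. That of Dmp1 was 0.68 in members (0.18 to 0.94) and -1.02 in other collagen-rich cells, where only 37 and 73 UMIs were counted. Dmp1 was also higher in Lipo-Clo in Ibsp cells with little osteocalcin, at 73.8 and 46.0 CPM, so its rise was not particular to members. In Dspp-high cells Dmp1 was lower in Lipo-Clo, at 336 and 955 CPM. That of Cspg4, a proteoglycan of pericytes and progenitors, was 0.65 (0.32 to 0.88) and -0.74. Pclaf, a DNA replication factor, was the reverse, at -0.89 in members and 0.94 in other collagen-rich cells, but its ratio in members was positive under 3 alternatives, at 0.0786 with 5 osteocalcin UMIs, 0.12 with 1% Col1a1 and 0.63 with 4% Col1a1.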

How the results depend on the processing

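No paired analysis was possible because a single library stands for either treatment. Of the values of named and listed genes under the alternatives, 3298 lay within the main value's counting interval, 503 outside it, and 20 belonged to ratios past 1.5-fold that turned sign, given last. A further 109 sign changes fell on 37 genes under 1.5-fold. Of 107 genes past 1.5-fold, thinning lost 31, at most 2% haemoglobin UMIs 29, a mean over cells 22, 4% Col1a1 22 and 20 osteocalcin UMIs 20. The causes were not tested. Chosen after seeing the data were the alternatives on haemoglobin UMIs, Ibsp UMIs, the absence of Dspp, totals without haemoglobin genes and leaving out the cell richest in each gene. The log2 ratio of the member share was -0.024 with at most 2% haemoglobin UMIs in members alone, -0.21 with that limit on all kept cells, and -0.048 after thinning. Genes higher and lower numbered 719 and 870 after thinning, 31 and 144 at a 2-fold limit, and 1041 and 1288 at the lowest fold limit tried. The secretory median was 0.0501 at 20 osteocalcin UMIs, -0.00023 at 4% Col1a1 and 0.0167 with at most 2% haemoglobin UMIs. The oxidative phosphorylation median was 0.27 with Dspp under 3 UMIs, 0.28 with TMM factors, 0.19 with totals lacking mitochondrial, haemoglobin and ribosomal protein genes, and 0.20 with totals lacking haemoglobin genes, as a mean over cells, and after thinning. The immediate early median was -0.44 with osteocalcin at 0.3% or more. Reversed log2 ratios were, for Ube2c, -0.41 without doublets, -0.50 at 4% Col1a1, -0.99 with at most 2% haemoglobin and -0.32 without its richest cell. Others were Nes at -0.17 and Cxcl12 at 0.29 after thinning, Cxcl12 at 0.36 and Ccn2 at 0.0221 as a mean over cells, Dspp at -0.37 with Dspp under 3 UMIs and -0.0356 with 5 or more Ibsp UMIs, and Gli1 at 0.12 without Dspp. Lyz2 reversed to 0.15 at 20 osteocalcin UMIs and 1.39 at 1% Col1a1. Camp reversed to 3.38 at 20 osteocalcin UMIs, 0.90 at 0.3% osteocalcin, 1.78 at 1% Col1a1 and 0.13 with at most 2% haemoglobin. Pclaf reversed to 0.0786 at 5 osteocalcin UMIs, 0.12 at 1% Col1a1 and 0.63 at 4% Col1a1. Genes with few UMIs in 244 and 316 cells were not distinguishable at this depth.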
